A study of Mus musculus with 8 samples.

Results

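The clustered protocadherins are cadherin-type adhesion proteins encoded on mouse chromosome 18 in an alpha, a beta and a gamma cluster. Genes on chromosome 18 were taken by symbol, as Pcdha followed by a digit or c, Pcdhb followed by a digit, or Pcdhg followed by a, b or c and a digit. This rule found 58 of the 46078 gene IDs in the count tables, 14 in the alpha, 22 in the beta and 22 in the gamma cluster. The rule uses the symbol and the chromosome and no measured value.

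Each alpha and each gamma isoform starts from its own promoter and has its own variable first exon, which is spliced to constant exons that all isoforms of that cluster share, whereas each beta gene stands largely on its own and has no constant exon. In neurons, a cell turns on a few of these promoters, each on either of its chromosomes, and the resulting set of surface proteins lets the branches of a neuron recognise and avoid each other. CTCF and cohesin bring distant enhancers to the chosen promoters, DNA methylation holds the others silent, and SMCHD1, a protein that also acts on the inactive X chromosome, is known to silence these clusters.

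Allelic RNA-seq counts were examined in female mouse embryonic fibroblasts (MEFs), connective tissue cells, labelled as a cross of 129S1/SvImJ and CAST/EiJ. The study's methods took the bases that separate the alleles from these strains, whereas its text gives the 129 parent of the X chromosomes as 129Sv4/Jae. WT MEFs and XiΔXist MEFs, which lack Xist on the inactive X chromosome of 129 origin, were compared without treatment, and XiΔXist MEFs were also given a scrambled hairpin (shSCR) or hairpins against YY1 (shYY1). Each group has 2 labelled samples whose reads the authors pooled before counting, so each group is 1 pool with 1 count per gene and allele. All 4 pools derive from clonal lines, 1 of each genotype. Any difference between WT and XiΔXist therefore cannot be told apart from a difference between 2 clones. The methods describe more than 1 hairpin against YY1, and the labels do not say which was used in each shYY1 sample.

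Autosomal allelic reads numbered 18745483 in the WT pool and 21342574 in the XiΔXist pool, but 1470870 and 1472083 in the shSCR and shYY1 pools. Levels are given as CPM, the count of both alleles scaled to this total, and a single read is worth about 0.05 CPM in the untreated and 0.68 CPM in the hairpin pools. With 1 pool per group there is no replicate error, all intervals cover counting error only, and tests on reads compare these pools rather than the conditions. Xist, the targeted RNA, had 35256 reads from the 129 and 149 from the CAST allele in WT, 13 and 8 in XiΔXist, none in shSCR and 0 and 6 in shYY1. Yy1 fell from 161 CPM in shSCR to 62.5 CPM in shYY1. Of the fibroblast markers, Vim, Fn1 and Col1a2 were read in every pool, with 2577 reads or more each, while Dcn had 2192 reads in XiΔXist but none in shSCR and 1 in shYY1, and Lum had no more than 7 in any pool.

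In the GENCODE M21 annotation of GRCm38 (mm10), the alpha members lie at chr18:36930184-37187661, the beta members at chr18:37264938-37524479 and the gamma members at chr18:37661793-37841873. The alpha members are Pcdha1 to Pcdha12 and the C-type isoforms Pcdhac1 and Pcdhac2. The beta members are Pcdhb1 to Pcdhb22. The gamma members are Pcdhga1 to Pcdhga12, Pcdhgb1, Pcdhgb2, Pcdhgb4 to Pcdhgb8 and the C-type isoforms Pcdhgc3, Pcdhgc4 and Pcdhgc5. One alpha gene, ENSMUSG00000007440, is named Pcdha10 here after RefSeq, since this annotation gives it the same symbol as ENSMUSG00000102206, Pcdha11.

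The constant exons decide what these counts can show. All alpha members share 2860 exon bases and all gamma members share 2116, while no exon base is common to the beta members. By default, the counting program leaves out a read that overlaps exons of more than 1 gene. In XiΔXist, 11 of the 14 alpha members were at 0 reads while Pcdha5 had 80, so reads in the constant exons were not given to every member. The counts are therefore read as variable-exon counts, and transcripts are undercounted in the alpha and gamma clusters relative to the beta cluster. The bases of a member that no other gene overlaps range from 404 (Pcdha4) to 3028 in the alpha cluster, from 1107 to 8695 in the beta cluster and from 0 to 4614 in the gamma cluster. Pcdhga10 has 0 such bases when strand is ignored, because the antisense transcript Gm26672 covers it, and 2613 on its own strand, so its lack of reads says nothing on its expression. Members are ranked by level per kilobase of these unique bases. Reads, CPM and shares of the reads of a cluster are not adjusted for length. How many strain-specific bases each member holds was not tested.

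Both chromosome 18 homologs could be read around the clusters. Among 32 genes listed as neighbours, 30 were found on chromosome 18, of which 23 had at least 10 allelic reads in WT, 25 had them in XiΔXist and 21 in each hairpin pool. Taking WT, XiΔXist, shSCR and shYY1 in turn, their median share of reads from the 129 allele was 54.3%, 53.3%, 51.2% and 52.6%, and 22, 23, 20 and 20 of them were read from both alleles, with a share between 10% and 90%. Fgf1, a growth factor gene, was read mostly from 1 allele in 3 pools, with 0 of 11 reads from 129 in WT, 58 of 59 in XiΔXist and 1 of 11 in shYY1. Gnpda1 in XiΔXist and Tmco6 in shSCR were the other neighbours beyond these limits, with 13 and 15 reads.

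The protein-coding genes Taf7, Diaph1 and Hdac3 next to the clusters were read from both alleles in the untreated pools. Reads are given from here on as the 129S1/SvImJ count followed by the CAST/EiJ count. Taf7, a subunit of the general transcription factor TFIID that lies between the beta and gamma clusters, had 995 and 629 reads in WT (86.6 CPM), 853 and 763 in XiΔXist (75.7 CPM), 20 and 3 in shSCR (15.6 CPM) and 31 and 8 in shYY1 (26.5 CPM). Diaph1, a formin that nucleates actin filaments, lies just beyond the gamma cluster and had 191 and 159 reads in WT (18.7 CPM), 264 and 321 in XiΔXist (27.4 CPM), 69 and 105 in shSCR (118 CPM) and 54 and 82 in shYY1 (92.4 CPM). Its neighbour Hdac3, a histone deacetylase, had 180 and 84 reads in WT (14.1 CPM), 156 and 109 in XiΔXist (12.4 CPM), 86 and 82 in shSCR (114 CPM) and 58 and 95 in shYY1 (104 CPM). Slc25a2, a mitochondrial carrier gene between the clusters, had few reads, with 2 and 9 reads in WT, 5 and 7 in XiΔXist, 1 and 2 in shSCR and no reads in shYY1. Not all transcripts there were read from both alleles: Gm8242, a transcribed pseudogene between Taf7 and the gamma cluster, had 4 and 51 reads in WT and 0 and 47 in XiΔXist.

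**Figure D1:**
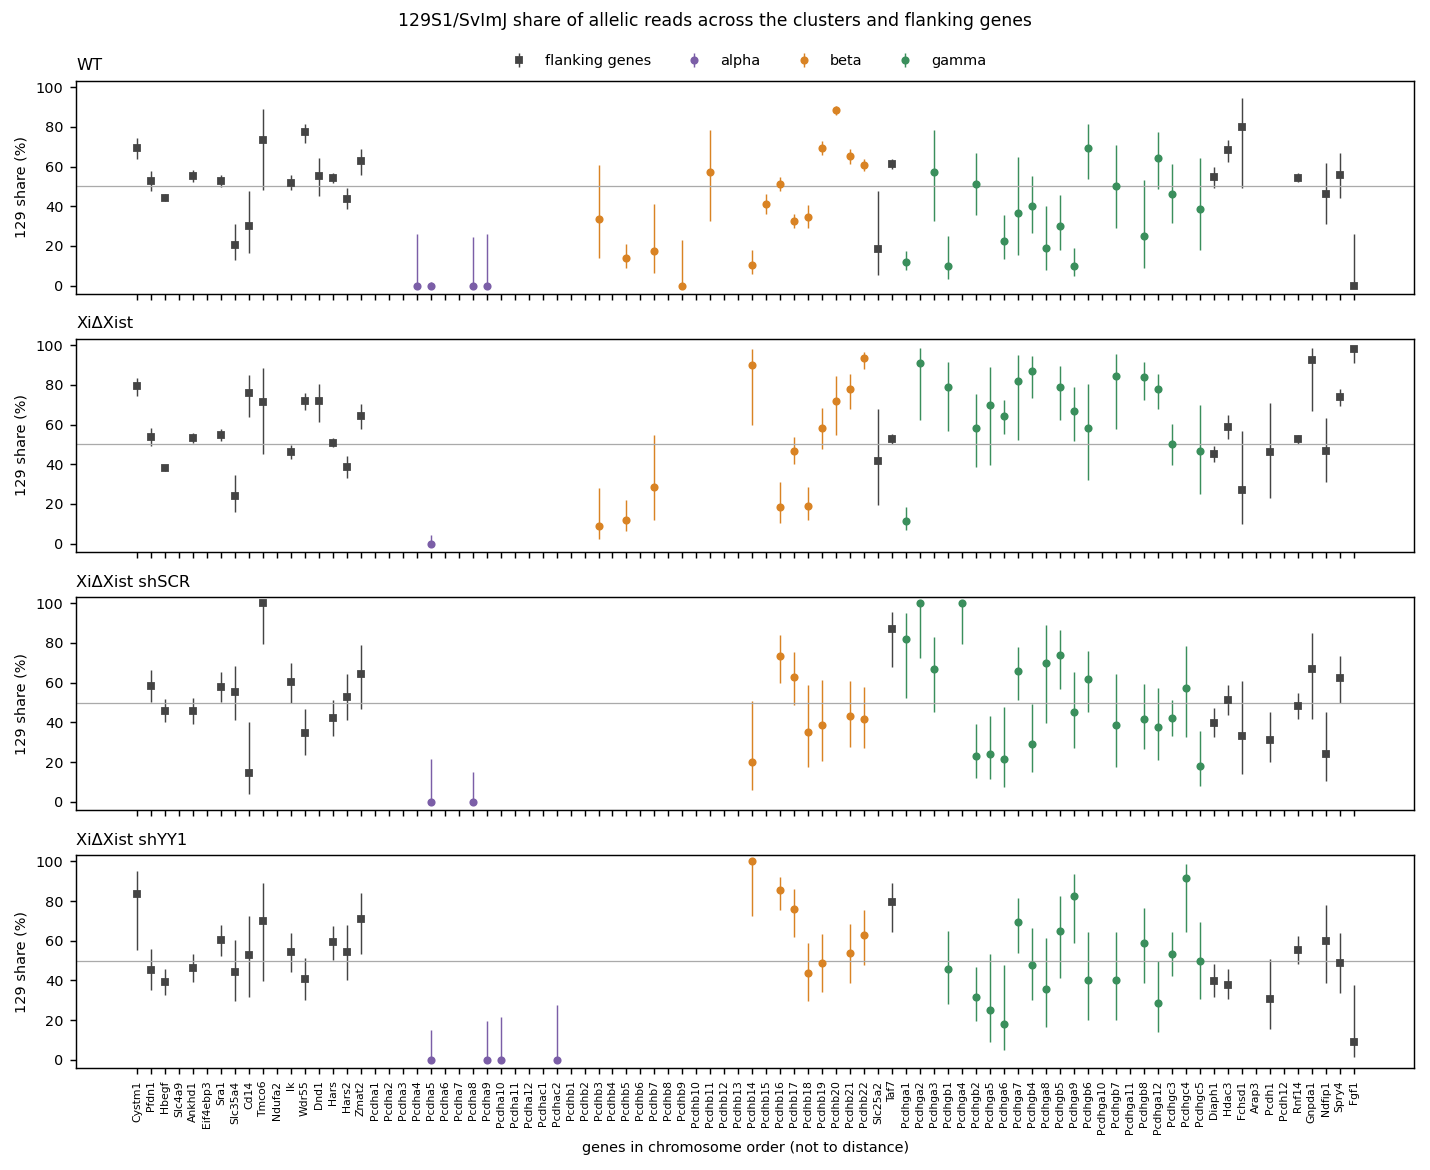
Share of allelic reads from the 129S1/SvImJ allele (percent) in each pool for the neighbouring genes on chromosome 18 and the clustered protocadherins, in chromosome order. Points are genes with at least 10 allelic reads and bars are Wilson 95% intervals; the alpha members sit at 0% in every pool while the neighbours on both sides are mostly between 10% and 90%.

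Alpha cluster reads came from the CAST allele in all 4 pools. Summed over the 14 members, 129 and CAST reads were 2 and 269 in WT, 0 and 86 in XiΔXist, 0 and 89 in shSCR and 0 and 113 in shYY1. The 129 share was thus 0.738% (95% interval 0.203 to 2.65) in WT. It was 0% in XiΔXist (95% interval 0 to 4.28), shSCR (95% interval 0 to 4.14) and shYY1 (95% interval 0 to 3.29). Both WT reads from the 129 allele fell on Pcdha7. Of the 50-base stretches in its unique exon bases 25.45% also occur in another gene, so reads there may not always be placed. This share was over 10% in 10 of the 14 alpha members, which also limits the order of alpha members by level. Whether the 129 copy is silent, lost or not told apart by its strain-specific bases was not tested.

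Transcripts other than the members inside the alpha interval were read the same way with 1 exception. Without Gm10544, 8 annotated antisense and pseudogene transcripts had 0 and 29 reads in WT, 0 and 2 in XiΔXist, 0 and 17 in shSCR and 0 and 7 in shYY1. Gm10544, a noncoding transcript at the 3′ side of the interval and on the opposite strand to the members, had 45 and 5 reads in WT and then only CAST reads, 2 in XiΔXist, 3 in shSCR and 5 in shYY1. Reads from the 129 allele were therefore seen inside the interval in WT only at this transcript and at Pcdha7.

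Pcdha5 made up most alpha reads in both untreated pools, and its reads were all from CAST. It had 0 and 193 reads in WT (10.3 CPM), 0 and 80 in XiΔXist (3.75 CPM), 0 and 14 in shSCR (9.52 CPM) and 0 and 22 in shYY1 (14.9 CPM). In WT its level per kilobase of unique exon was 4.39 (95% interval 3.79 to 5.05) CPM per kb, above 1.45 (95% interval 0.725 to 2.6) for Pcdha4, the next in order, which rests on 11 reads over 404 bases. In the hairpin pools alpha reads were spread more evenly over the members. The member with the most reads held 24.7% of them in shSCR and 19.5% in shYY1, against 71.2% in WT and 93.0% in XiΔXist. Members with reads numbered 13 of 14 in shSCR and all 14 in shYY1, against 13 in WT and 3 in XiΔXist. At the depth of the hairpin pools the order of the alpha members per kilobase is not settled, since the intervals of the first 4 overlap in each. Pcdha8 had 0 and 12 reads in WT (0.640 CPM), 0 and 4 in XiΔXist (0.187 CPM), 0 and 22 in shSCR (15 CPM) and 0 and 9 in shYY1 (6.11 CPM), and Pcdha9 had 0 and 11 reads in WT (0.587 CPM), no reads in XiΔXist, 0 and 6 in shSCR (4.08 CPM) and 0 and 16 in shYY1 (10.9 CPM). The C-type isoforms, known to be less subject to random choice than the others, had few reads, with Pcdhac1 at 6 or fewer and Pcdhac2 at 10 or fewer in any pool. Per kilobase, Pcdhac2 was at 2.24 (95% interval 1.08 to 4.13) CPM per kb in shYY1 and Pcdha8 at 2.47 (95% interval 1.13 to 4.68), which do not differ beyond their intervals.

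**Figure D2:**
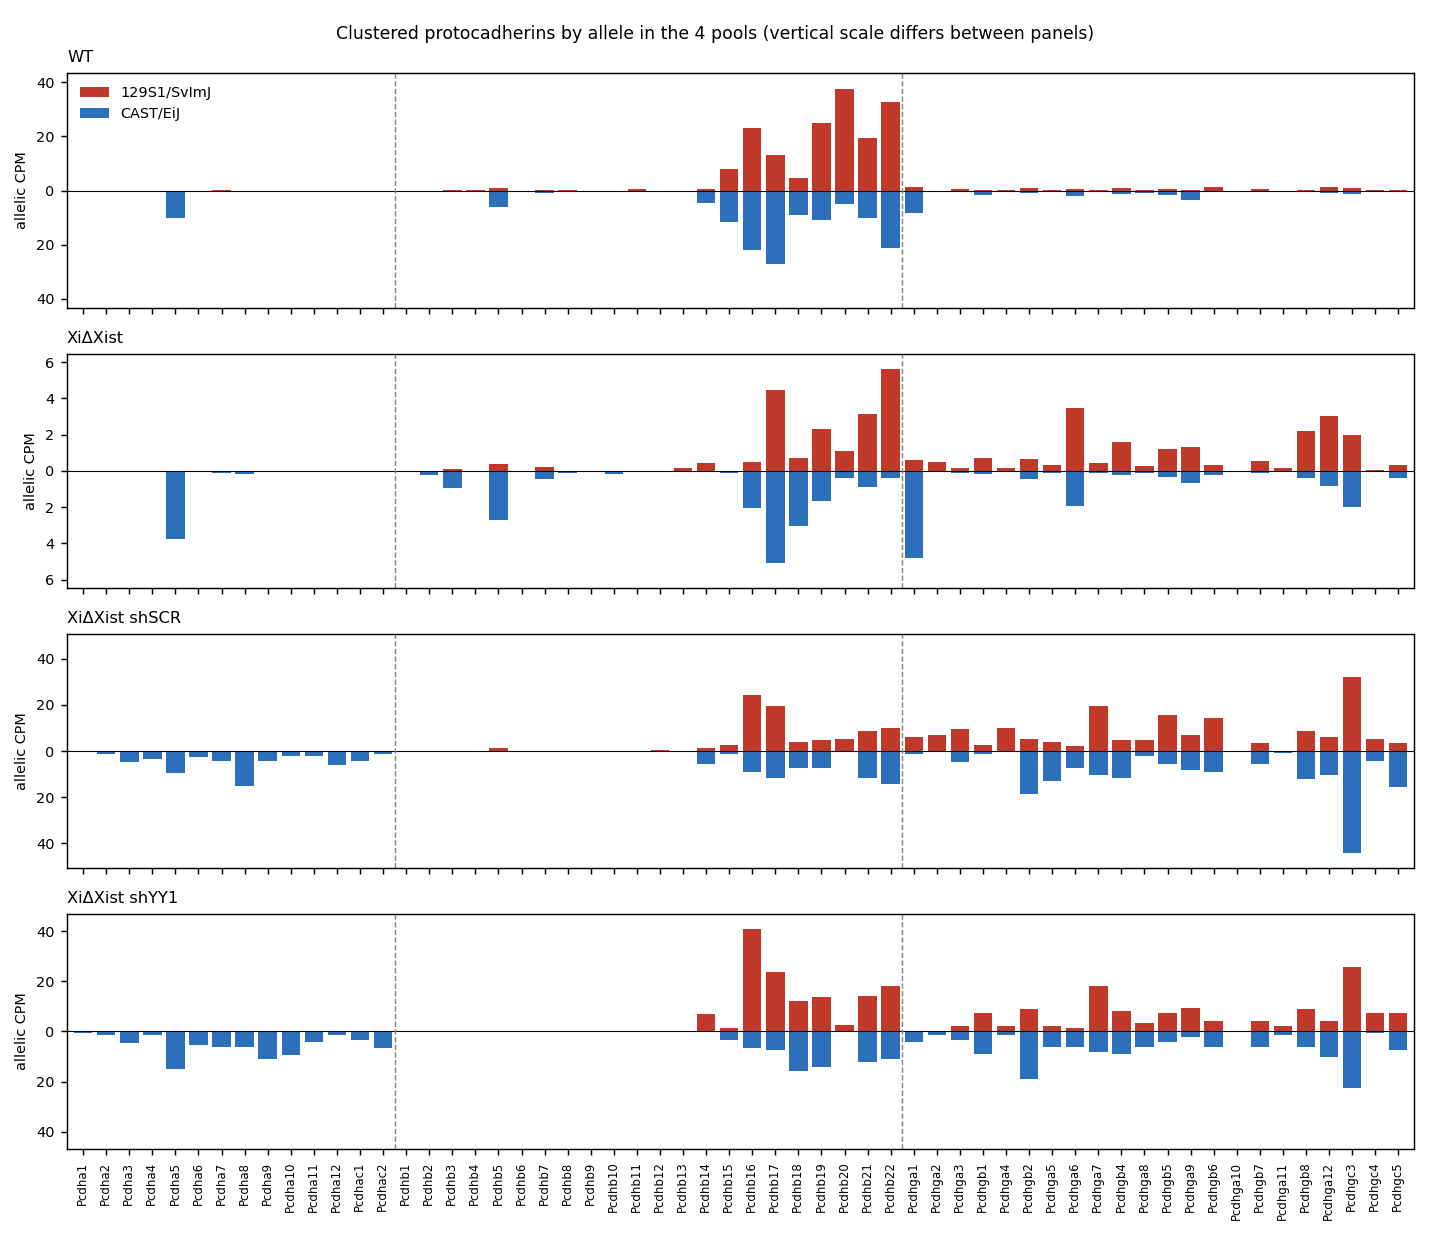
Allelic CPM of each of the 58 members in chromosome order, with the 129S1/SvImJ allele drawn upward in red and the CAST/EiJ allele downward in blue, 1 panel per pool and a vertical scale of its own in each. Dashed lines separate the alpha, beta and gamma clusters; beta reads fall mostly on Pcdhb14 to Pcdhb22, and alpha reads lie on the CAST side but for 2 reads of Pcdha7 in WT.

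The 58 members together reached 347 CPM in WT and 74.4 CPM in XiΔXist, and 569 and 556 CPM in shSCR and shYY1. Members with at least 10 allelic reads numbered 34, 28, 28 and 27 in the same order, and members without reads 5, 17, 13 and 14. Over the 40935 autosomal genes, 12373, 12028, 10332 and 10394 had at least 10 reads. A level of at least 5 CPM was reached by 12 members in WT and 4 in XiΔXist, and by 30 and 31 members in shSCR and shYY1. This limit rests on far fewer reads in the hairpin pools, and the autosomal genes reaching it were not counted. In shSCR against untreated XiΔXist, 48.3% of the 12073 autosomal genes tested were higher by 2-fold or more. Pcdhb1 and Pcdhga10 had no reads in any pool. Members without reads in WT were Pcdha1, Pcdhb1, Pcdhb2, Pcdhb12 and Pcdhga10. In XiΔXist these were Pcdha1, Pcdha2, Pcdha3, Pcdha4, Pcdha6, Pcdha9, Pcdha10, Pcdha11, Pcdha12, Pcdhac1, Pcdhac2, Pcdhb1, Pcdhb4, Pcdhb9, Pcdhb11, Pcdhb12 and Pcdhga10. In both hairpin pools Pcdhb1, Pcdhb2, Pcdhb3, Pcdhb4, Pcdhb6 to Pcdhb11, Pcdhb13 and Pcdhga10 had none, with Pcdha1 added in shSCR and Pcdhb5 and Pcdhb12 added in shYY1. A count of 0 allows a level of up to 0.160 CPM in WT and 0.141 CPM in XiΔXist but up to 2.04 CPM in each hairpin pool, so absence there is much less firmly shown.

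**Figure D3:**
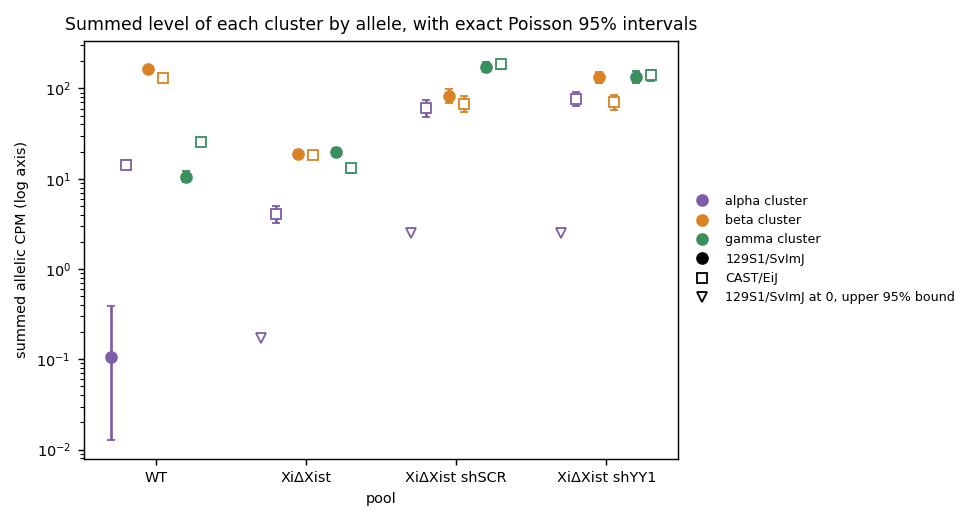
Summed allelic CPM (log axis) of the alpha, beta and gamma members in each pool, by allele, with exact Poisson 95% intervals; downward triangles are upper bounds where the 129S1/SvImJ count was 0. The beta cluster is lower in XiΔXist than in WT on both alleles, and the gamma cluster is higher in XiΔXist on the 129S1/SvImJ allele and lower on the CAST/EiJ allele.

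The first comparison asked how the clusters differ between untreated XiΔXist and WT MEFs. The beta cluster was lower in XiΔXist on both alleles, at 37.4 CPM (95% interval 34.8 to 40.1) against 296 CPM (95% interval 289 to 304) in WT, or 7.93-fold lower (95% interval 7.36 to 8.55). The 129 allele summed to 166 CPM in WT and 19 CPM in XiΔXist, and the CAST allele to 131 CPM and 18.4 CPM. The gamma cluster summed to nearly the same level, 32.9 CPM (95% interval 30.6 to 35.5) in XiΔXist and 36.1 CPM (95% interval 33.5 to 38.9) in WT, but the alleles went opposite ways. Its 129 allele was 1.88-fold higher (95% interval 1.58 to 2.24) in XiΔXist and its CAST allele 1.96-fold lower (95% interval 1.68 to 2.27). The alpha cluster, read from CAST, was 3.59-fold lower (95% interval 2.81 to 4.63).

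Changes of single members were taken as log2 ratios of CPM plus 1, which understates the change of low genes, for genes with at least 20 reads in the pools compared, and called at 2-fold. Of the 58 members 28 passed this minimum. In XiΔXist against WT, 10 of them were lower and 1 was higher, where 6.19% and 3.05% of the 12269 autosomal genes tested were lower and higher. By cluster, 9 of the 12 beta members that passed were lower and none higher, 1 of 15 gamma members was higher and none lower (1 higher and 2 lower at a pseudocount of 0.1 CPM), and the 1 alpha member, Pcdha5, was 2.75-fold lower (95% interval 2.11 to 3.61). The median log2 change was -2.34 in the beta and -0.28 in the gamma cluster, beside -0.09 over all autosomal genes tested, which had an SD of 0.74. The members share a library and, within the beta cluster, a stretch of chromosome, so they are not independent counts.

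The reads of the beta cluster came mostly from its 3′ end. Pcdhb14 to Pcdhb22, 9 genes, held 96.3% and 85.2% of the beta reads in WT and XiΔXist, 98.7% of those in shSCR and all of those in shYY1. Per kilobase of unique exon this stretch was at 6.01 CPM per kb (95% interval 5.85 to 6.17) in WT and 0.670 (95% interval 0.621 to 0.723) in XiΔXist, while Pcdhb1 to Pcdhb13 were at 0.262 (95% interval 0.228 to 0.30) and 0.131 (95% interval 0.108 to 0.156). Each gene of the 3′ stretch was called lower in XiΔXist. Of the 13 members before it only Pcdhb3, Pcdhb5 and Pcdhb7 passed the minimum of reads, and they were not called, although Pcdhb5 was called lower at a pseudocount of 0.1 CPM. Pcdhb9 went from 13 reads in WT to 0 in XiΔXist and Pcdhb11 from 14 to 0. By the limit of the exact 95% interval of their ratios they were at least 3.47-fold and 3.78-fold lower. Lower levels were thus not confined to the 3′ stretch.

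Neuron markers were lower together with the beta cluster in XiΔXist against WT, but not in shYY1 against shSCR, where their sum was lower and the beta sum higher. All 3 neuron markers tested were lower in XiΔXist than in WT, at log2 changes of -1.54 for Tubb3, -1.55 for Map2 and -1.49 for Elavl4. The 8 neuron markers summed to 124 CPM in WT and 40.6 CPM in XiΔXist, and to 147 and 111 CPM in the shSCR and shYY1 pools, nearly all of it Map2, which fibroblasts also express, while Rbfox3 and Stmn2 had no reads in any pool and Syt1 and Elavl4 none outside WT. In bulk samples, fewer cells of a type and less RNA per cell cannot be told apart, and the part of these markers in the beta cluster difference was not tested.

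Pcdhb15 differed most. It had 152 and 220 reads in WT (19.8 CPM), 0 and 3 in XiΔXist (0.141 CPM), 4 and 2 in shSCR (4.08 CPM) and 2 and 5 in shYY1 (4.76 CPM), which is 141-fold lower (95% interval 47.9 to 688) in XiΔXist than in WT. Pcdhb20 had 705 and 93 reads in WT (42.6 CPM), 23 and 9 in XiΔXist (1.5 CPM), 8 and 0 in shSCR (5.44 CPM) and 4 and 0 in shYY1 (2.72 CPM), or 28.4-fold lower (95% interval 19.9 to 41.8) in XiΔXist. Pcdhb16 had 430 and 411 reads in WT (44.9 CPM), 10 and 44 in XiΔXist (2.53 CPM), 36 and 13 in shSCR (33.3 CPM) and 60 and 10 in shYY1 (47.6 CPM), or 17.7-fold lower (95% interval 13.5 to 23.8). In all of these genes XiΔXist was below WT by far more than the counting error.

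Pcdhb14 had 10 and 87 reads in WT (5.17 CPM), 9 and 1 in XiΔXist (0.469 CPM), 2 and 8 in shSCR (6.8 CPM) and 10 and 0 in shYY1 (6.79 CPM), which is 11-fold lower (95% interval 5.75 to 23.8) in XiΔXist. Pcdhb19 had 465 and 205 reads in WT (35.7 CPM), 49 and 35 in XiΔXist (3.94 CPM), 7 and 11 in shSCR (12.2 CPM) and 20 and 21 in shYY1 (27.9 CPM), or 9.08-fold lower (95% interval 7.23 to 11.5). The most abundant beta member of WT by reads, Pcdhb22, had 612 and 397 reads in WT (53.8 CPM), 120 and 8 in XiΔXist (6.0 CPM), 15 and 21 in shSCR (24.5 CPM) and 27 and 16 in shYY1 (29.2 CPM), or 8.97-fold lower (95% interval 7.46 to 10.9). Per kilobase, Pcdhb20 led in WT at 12 (95% interval 11.2 to 12.8) CPM per kb, followed by Pcdhb22 at 8.75 (95% interval 8.21 to 9.3), Pcdhb17 at 8.6 (95% interval 7.99 to 9.23) and Pcdhb16 at 8.59 (95% interval 8.02 to 9.19), of which the last 3 do not differ beyond their intervals.

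Pcdhb21 had 361 and 193 reads in WT (29.6 CPM), 67 and 19 in XiΔXist (4.03 CPM), 13 and 17 in shSCR (20.4 CPM) and 21 and 18 in shYY1 (26.5 CPM), which is 7.33-fold lower (95% interval 5.83 to 9.32) in XiΔXist than in WT. It shares 455 exon bases with Pcdhb22 in the annotation, and reads there belong to neither count. Pcdhb17 had 244 and 507 reads in WT (40.1 CPM), 95 and 108 in XiΔXist (9.51 CPM), 29 and 17 in shSCR (31.3 CPM) and 35 and 11 in shYY1 (31.2 CPM), or 4.21-fold lower (95% interval 3.6 to 4.94). In XiΔXist Pcdhb17 led the beta members per kilobase, at 2.04 (95% interval 1.77 to 2.34) CPM per kb, above 0.975 (95% interval 0.813 to 1.16) for Pcdhb22. Pcdhb18 had 89 and 169 reads in WT (13.8 CPM), 15 and 65 in XiΔXist (3.75 CPM), 6 and 11 in shSCR (11.6 CPM) and 18 and 23 in shYY1 (27.9 CPM), or 3.67-fold lower (95% interval 2.85 to 4.78).

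Before this stretch, Pcdhb5 was the member with the most reads. It had 18 and 112 reads in WT (6.93 CPM), 8 and 58 in XiΔXist (3.09 CPM), 2 and 0 in shSCR (1.36 CPM) and no reads in shYY1, 2.24-fold lower (95% interval 1.66 to 3.06) in XiΔXist but short of the call on the scale used, at a log2 change of -0.96. Pcdhb3 and Pcdhb7 passed the minimum with log2 changes of 0.31 and -0.20, and the intervals of their ratios included 1. The other beta members before Pcdhb14 had 14 reads or fewer in each pool.

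Gamma members were expressed at low levels in the untreated pools. Pcdhgb8, which the annotation lists as a polymorphic pseudogene, was the member called higher in XiΔXist, with 3 and 9 reads in WT (0.640 CPM), 47 and 9 in XiΔXist (2.62 CPM), 13 and 18 in shSCR (21.1 CPM) and 13 and 9 in shYY1 (14.9 CPM), or 4.1-fold higher (95% interval 2.17 to 8.4) in XiΔXist than in WT. Pcdhga6 had 12 and 41 reads in WT (2.83 CPM), 74 and 41 in XiΔXist (5.39 CPM), 3 and 11 in shSCR (9.52 CPM) and 2 and 9 in shYY1 (7.47 CPM), a ratio of 1.91 (95% interval 1.36 to 2.69). Pcdhga12 had 25 and 14 reads in WT (2.08 CPM), 64 and 18 in XiΔXist (3.84 CPM), 9 and 15 in shSCR (16.3 CPM) and 6 and 15 in shYY1 (14.3 CPM), a ratio of 1.85 (95% interval 1.25 to 2.78). These 3 members were above WT beyond counting error, as was Pcdhgc3, described below, at a ratio of 1.89 (95% interval 1.28 to 2.84). Of these only Pcdhgb8 reached 2-fold. When levels were scaled to all allelic reads, the log2 change of Pcdhgb8 was 0.99 and it was not called.

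The C-type isoforms of the gamma cluster include Pcdhgc3, which led this cluster per kilobase in 3 pools. Pcdhgc3 had 18 and 21 reads in WT (2.08 CPM), 42 and 42 in XiΔXist (3.94 CPM), 47 and 65 in shSCR (76.1 CPM) and 38 and 33 in shYY1 (48.2 CPM). Its level per kilobase was 2.16 (95% interval 1.72 to 2.68) CPM per kb in XiΔXist, 41.8 (95% interval 34.4 to 50.3) in shSCR and 26.5 (95% interval 20.7 to 33.4) in shYY1, whereas in WT Pcdhga1 led at 3.34 (95% interval 2.87 to 3.87) and Pcdhgc3 stood at 1.14 (95% interval 0.812 to 1.56). In XiΔXist the intervals of Pcdhgc3, Pcdhga6 and Pcdhga1 overlapped. In both hairpin pools Pcdhgc3 lay above the next member, Pcdhga7, by more than the intervals. Pcdhgc5 had 5 and 8 reads in WT (0.694 CPM), 7 and 8 in XiΔXist (0.703 CPM), 5 and 23 in shSCR (19 CPM) and 11 and 11 in shYY1 (14.9 CPM).

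Pcdhga1, the first gene of the gamma cluster, had 21 and 157 reads in WT (9.5 CPM), 13 and 102 in XiΔXist (5.39 CPM), 9 and 2 in shSCR (7.48 CPM) and 0 and 6 in shYY1 (4.08 CPM). It was 1.76-fold lower (95% interval 1.39 to 2.25) in XiΔXist than in WT and read mainly from CAST in both. Pcdhga9 had 7 and 65 reads in WT (3.84 CPM), 28 and 14 in XiΔXist (1.97 CPM), 10 and 12 in shSCR (15 CPM) and 14 and 3 in shYY1 (11.5 CPM), or 1.95-fold lower (95% interval 1.32 to 2.93). Pcdhgb6 had 27 and 12 reads in WT (2.08 CPM), 7 and 5 in XiΔXist (0.562 CPM), 21 and 13 in shSCR (23.1 CPM) and 6 and 9 in shYY1 (10.2 CPM), or 3.7-fold lower (95% interval 1.9 to 7.76). None of these was called at 2-fold on the log2(CPM + 1) scale, but at a pseudocount of 0.1 CPM Pcdhgb6 and Pcdhga8 were called lower, at -1.72 and -1.23.

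The remaining gamma members with full values were not called between the untreated pools on that scale. Pcdhgb4 had 16 and 24 reads in WT (2.13 CPM), 34 and 5 in XiΔXist (1.83 CPM), 7 and 17 in shSCR (16.3 CPM) and 12 and 13 in shYY1 (17 CPM). Pcdhgb5 had 12 and 28 reads in WT (2.13 CPM), 26 and 7 in XiΔXist (1.55 CPM), 23 and 8 in shSCR (21.1 CPM) and 11 and 6 in shYY1 (11.5 CPM). For both, the interval of the ratio of XiΔXist to WT included 1. Pcdhgb2 had 18 and 17 reads in WT (1.87 CPM), 14 and 10 in XiΔXist (1.12 CPM), 8 and 27 in shSCR (23.8 CPM) and 13 and 28 in shYY1 (27.9 CPM), and it shares long stretches of sequence with Pcdhgb1, at 91.4% identity over 1162 unique bases, so short reads may not always be placed between them. Pcdhgb1 had 3 and 28 reads in WT (1.65 CPM), 15 and 4 in XiΔXist (0.890 CPM), 4 and 2 in shSCR (4.08 CPM) and 11 and 13 in shYY1 (16.3 CPM), with mostly CAST reads in WT and mostly 129 reads in XiΔXist.

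A further group of gamma members lay at or below 1.12 CPM in both untreated pools. Pcdhga7 had 4 and 7 reads in WT (0.587 CPM), 9 and 2 in XiΔXist (0.515 CPM), 29 and 15 in shSCR (29.9 CPM) and 27 and 12 in shYY1 (26.5 CPM). Pcdhgb7 had 9 and 9 reads in WT (0.960 CPM), 11 and 2 in XiΔXist (0.609 CPM), 5 and 8 in shSCR (8.84 CPM) and 6 and 9 in shYY1 (10.2 CPM). Both were higher in the hairpin pools than in either untreated pool. Pcdhga5 had 3 and 6 reads in WT (0.480 CPM), 7 and 3 in XiΔXist (0.469 CPM), 6 and 19 in shSCR (17 CPM) and 3 and 9 in shYY1 (8.15 CPM). Pcdhga8 had 4 and 17 reads in WT (1.12 CPM), 6 and 3 in XiΔXist (0.422 CPM), 7 and 3 in shSCR (6.8 CPM) and 5 and 9 in shYY1 (9.51 CPM). The last of the 30 members given in full, Pcdhga3, had 8 and 6 reads in WT (0.747 CPM), 3 and 2 in XiΔXist (0.234 CPM), 14 and 7 in shSCR (14.3 CPM) and 3 and 5 in shYY1 (5.43 CPM). These 3 were again higher in both hairpin pools. A higher level there was not particular to this group, since 48.3% of autosomal genes tested were called higher in shSCR than in untreated XiΔXist. Library, depth and hairpin differ together between those pools, and hairpin pools were not tested against WT. XiΔXist lay below WT beyond counting error for Pcdhga8, 2.66-fold lower (95% interval 1.17 to 6.59), and for Pcdhga3, which had under 20 reads in that pair.

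**Figure D4:**
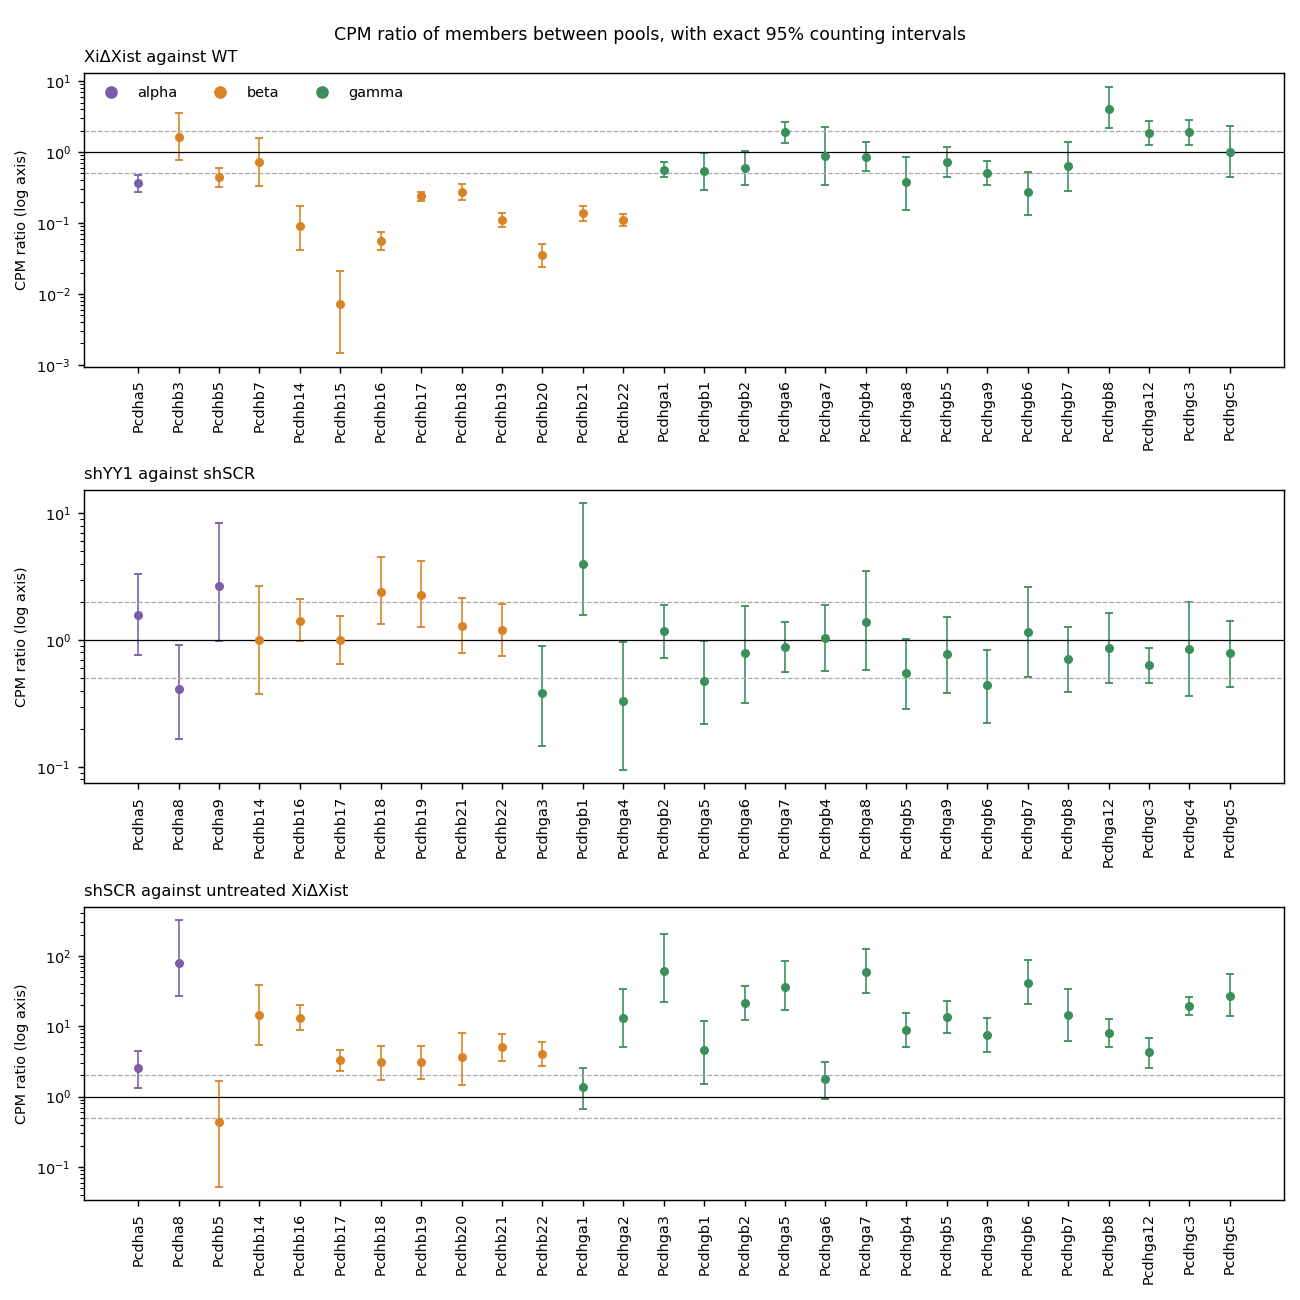
Ratio of CPM (log axis) between pools for each member with at least 20 reads in the pair and reads in both pools, coloured by cluster, with exact 95% counting intervals; dashed lines mark 2-fold. In XiΔXist against WT the beta members from Pcdhb14 to Pcdhb22 lie below the lower line. The gamma members lie on both sides of 1, from 0.270 for Pcdhgb6 to 4.10 for Pcdhgb8.

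Allele use was then compared between the untreated pools, by a two-sided Fisher's exact test on the 129 and CAST reads of each gene with at least 10 reads in both, adjusted by the Benjamini-Hochberg method over all 11409 such autosomal genes. Of the 26 members tested, 9 had a higher and 2 a lower 129 share in XiΔXist than in WT at an adjusted p under 0.05. Over autosomal genes 7.24% were higher and 12.7% lower, and of other chromosome 18 genes 28.5% were called in either direction, so single calls are frequent on this chromosome at this depth. The direction in the gamma cluster was 1-sided: 6 of 14 members were called, all 6 higher in XiΔXist, and 12 of 14 had a higher share. Their median 129 share was 37.4% in WT and 72.4% in XiΔXist, and the summed gamma reads were 29.2% (95% interval 25.9 to 32.8) and 60.3% (95% interval 56.6 to 63.9) from the 129 allele. The median over other chromosome 18 genes was 56.1% and 53.3%. The 7 antisense, small and noncoding transcripts annotated inside the gamma interval had 58 and 81 reads in WT and 78 and 40 in XiΔXist, a share of 41.7% and 66.1%, although strand was not given for the counting and some of these reads may come from the members.

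Pcdhga9 had a 129 share of 9.72% (95% interval 4.79 to 18.7) in WT and 66.7% (95% interval 51.5 to 79) in XiΔXist (adjusted Fisher's exact p = 4.60e-09). In Pcdhga6 it was 22.6% (95% interval 13.4 to 35.5) and 64.3% (95% interval 55.3 to 72.5) (adjusted Fisher's exact p = 5.24e-06). In Pcdhgb1 it was 9.68% (95% interval 3.35 to 24.9) and 78.9% (95% interval 56.7 to 91.5) (adjusted Fisher's exact p = 1.08e-05). Of these 3 genes, WT read CAST for the most part and XiΔXist read 129 for the most part. Pcdhgb4, Pcdhgb5 and Pcdhgb8 differed in the same direction, with 16 of 40, 12 of 40 and 3 of 12 reads from 129 in WT against 34 of 39, 26 of 33 and 47 of 56 in XiΔXist (adjusted Fisher's exact p = 0.000161, 0.000415 and 0.00111).

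The counts of single alleles show on which allele the pools differed. For Pcdhgb8 the 129 level was 0.160 CPM in WT and 2.20 CPM in XiΔXist while the CAST level was 0.480 and 0.422 CPM. For Pcdhga6 the 129 level was 0.640 and 3.47 CPM and the CAST level 2.19 and 1.92 CPM. In these genes the difference was on the 129 allele, and the interval of the CAST ratio included 1. For Pcdhga9 the 129 level was 0.373 and 1.31 CPM and the CAST level 3.47 and 0.656 CPM, so the alleles differed in opposite directions. Pcdhga1 was not called, with 129 shares of 11.8% (95% interval 7.85 to 17.4) in WT and 11.3% (95% interval 6.73 to 18.4) in XiΔXist (adjusted Fisher's exact p = 1). Pcdhgc3 was read about equally from both alleles, at 46.2% (95% interval 31.6 to 61.4) and 50% (95% interval 39.5 to 60.5).

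In the beta cluster, 5 of 11 members were called, 3 with a higher and 2 with a lower 129 share in XiΔXist. Pcdhb14 went from 10.3% (95% interval 5.7 to 17.9) in WT to 90% (95% interval 59.6 to 98.2) in XiΔXist (adjusted Fisher's exact p = 2.74e-06), with the 129 level at 0.534 and 0.422 CPM and the CAST level at 4.64 and 0.0469 CPM. Pcdhb22 went from 60.7% (95% interval 57.6 to 63.6) to 93.8% (95% interval 88.2 to 96.8) (adjusted Fisher's exact p = 8.04e-15). Its neighbours were not called, with Pcdhb21 at 65.2% and 77.9% (adjusted Fisher's exact p = 0.0887) and Pcdhb20 at 88.3% and 71.9% (adjusted Fisher's exact p = 0.0549). Pcdhb16 went the other way, from 51.1% (95% interval 47.8 to 54.5) to 18.5% (95% interval 10.4 to 30.8) (adjusted Fisher's exact p = 2.13e-05). Pcdhb17 was at 32.5% and 46.8% and Pcdhb18 at 34.5% and 18.8% (adjusted Fisher's exact p = 0.00152 and 0.0423). The call of Pcdhb18 was lost when genes with fewer reads entered the adjustment or when CAST reads were scaled to an even median share. Pcdhb5 held its CAST bias, at 13.8% (95% interval 8.94 to 20.8) and 12.1% (95% interval 6.27 to 22.1).

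**Figure D5:**
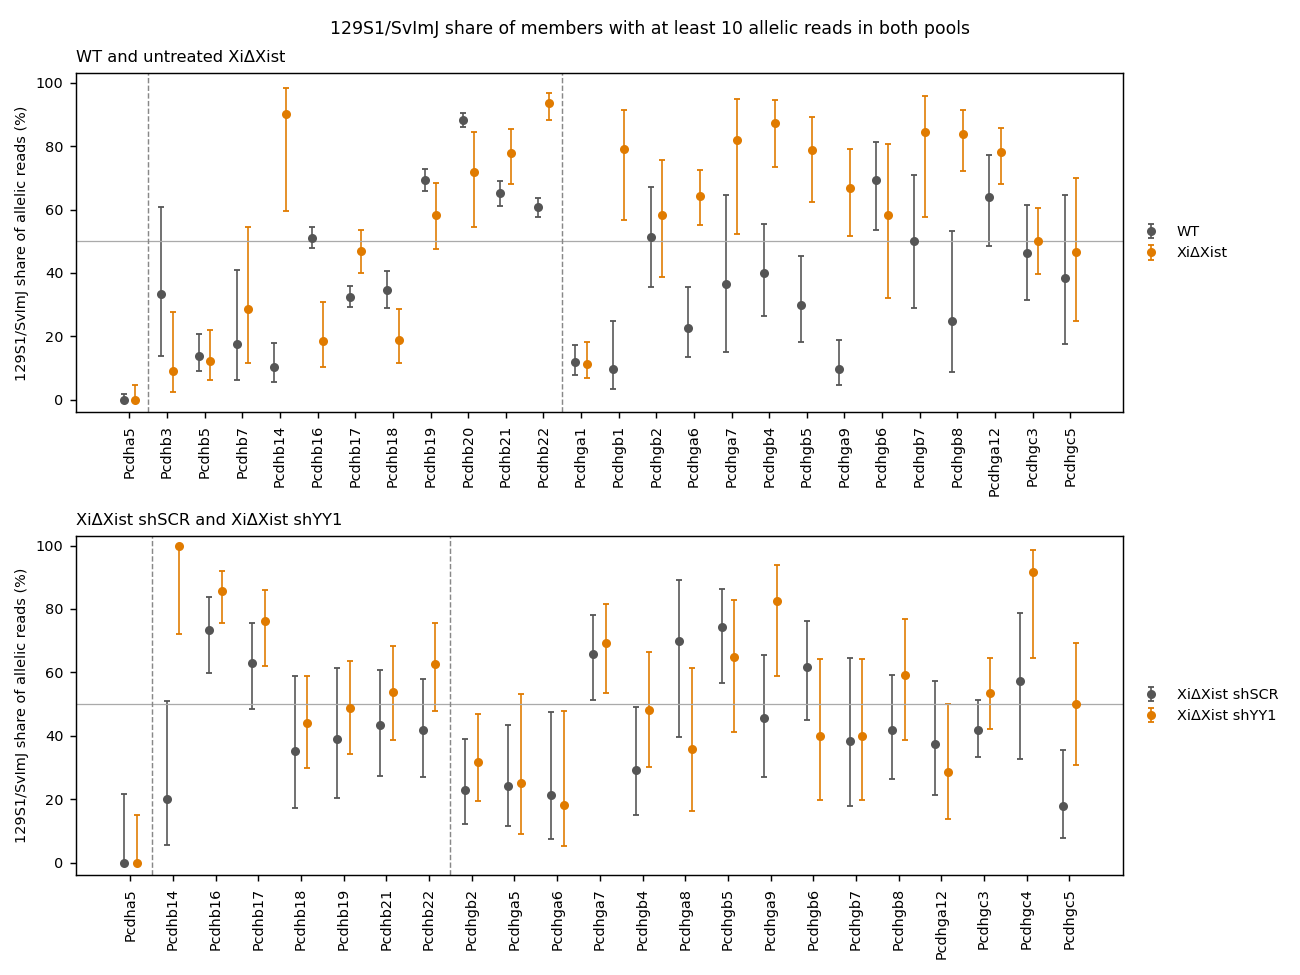
Share of allelic reads from the 129S1/SvImJ allele (percent) with Wilson 95% intervals, for members with at least 10 reads in both pools of each pair, the first pool in grey and the second in orange, with clusters separated by dashed lines. Above, 12 of 14 gamma members have a higher share in XiΔXist than in WT; below, the intervals of shSCR and shYY1 overlap for all members except Pcdhb14.

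The second comparison asked what differed when YY1 was knocked down in XiΔXist MEFs. Of 28 members with at least 20 reads in the pair, 4 were called higher and 4 lower in shYY1 than in shSCR, beside 3.44% and 3.06% of 10332 autosomal genes. The median log2 change was 0.36 over 7 beta and -0.32 over 18 gamma members, and -0.01 over all autosomal genes. Summed over members, the beta cluster was at 204 CPM (95% interval 182 to 229) in shYY1 and 152 CPM (95% interval 132 to 173) in shSCR, or 1.35-fold higher (95% interval 1.13 to 1.61). The gamma cluster was at 274 CPM (95% interval 248 to 303) and 357 CPM (95% interval 327 to 389), or 1.3-fold lower (95% interval 1.14 to 1.48). The alpha cluster was at 76.8 CPM (95% interval 63.3 to 92.3) and 60.5 CPM (95% interval 48.6 to 74.5), and the interval of their ratio, 1.27 (95% interval 0.952 to 1.69), included 1.

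The members called higher were Pcdhb18, Pcdhb19, Pcdhgb1 and Pcdha9. Pcdhb18 was 2.41-fold higher (95% interval 1.34 to 4.52), Pcdhb19 2.28-fold higher (95% interval 1.28 to 4.21) and Pcdhgb1 4.0-fold higher (95% interval 1.59 to 11.9) in shYY1, while for Pcdha9 the interval of the ratio, 2.66 (95% interval 0.990 to 8.31), included 1. The members called lower were Pcdha8, Pcdhga3, Pcdhga4 and Pcdhgb6. Pcdha8 was 2.45-fold lower (95% interval 1.08 to 6.04), Pcdhga3 2.63-fold lower (95% interval 1.12 to 6.86) and Pcdhgb6 2.27-fold lower (95% interval 1.2 to 4.48). Pcdhga4 had 15 and 0 reads in shSCR and 3 and 2 in shYY1. These calls rest on 5 to 41 reads a pool. At a minimum of 50 reads in the pair 2 of 11 members were called higher and none lower, beside 1.57% and 1.13% of autosomal genes. Pcdhgc3 was not called, although its ratio of 0.633 (95% interval 0.464 to 0.860) excluded 1.

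No member had a different 129 share between the hairpin pools after adjustment. Of 23 members with at least 10 reads in both pools, none was called by Fisher's exact test once adjusted over all autosomal genes, and 3 had an unadjusted p under 0.05. Over autosomal genes 0.658% were called higher and 0.545% lower, and 2.59% of other chromosome 18 genes in either direction. Pcdhb14 came closest, with 2 and 8 reads in shSCR and 10 and 0 in shYY1 (adjusted Fisher's exact p = 0.0547), and it was called when CAST reads were scaled to an even median share. All 7 beta members tested had a higher 129 share in shYY1, but they share a library and a stretch of chromosome and are not independent. How many other genes had a higher share was not counted. The summed beta share was 65.4% (95% interval 59.9 to 70.6) against 55.2% (95% interval 48.6 to 61.5), and these intervals overlap. On the 129 allele the beta sum was 1.6-fold higher (95% interval 1.27 to 2.02) in shYY1, and on the CAST allele the ratio was 1.04 (95% interval 0.782 to 1.38). The gamma share was 49% (95% interval 44.2 to 53.9) and 48.2% (95% interval 43.9 to 52.5), and both gamma alleles were lower in shYY1.

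The hairpin pools differed from untreated XiΔXist throughout the clusters, although the genotype is the same. In shSCR against untreated XiΔXist, 25 of 29 members were called higher and 1, Pcdhb3, lower, but 48.3% of 12073 autosomal genes were called higher and 19.2% lower as well. The median log2 change was 0.89 over autosomal genes, 1.52 over 10 beta and 2.62 over 17 gamma members, with an SD of 2.26 over autosomal genes. Library, sequencing depth, read length and hairpin differ together here and cannot be told apart. Away from chromosome 18, Wapl on chromosome 14 had 5532 and 5501 reads in untreated XiΔXist but 1 and 198 in shSCR and 1 and 228 in shYY1. Whether the hairpin pools hold the same cells as the untreated pool was not tested. Relative to the median ratio of autosomal genes, 19 members were higher and 2 lower, beside 37.6% and 28.9% of autosomal genes.

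Allele use also differed between untreated XiΔXist and shSCR. Of 23 members tested, 2 had a higher and 8 a lower 129 share in shSCR, while 11.3% and 10.4% of autosomal genes, and 24.3% of other chromosome 18 genes in either direction, were called. Pcdhga1 was at 11.3% (95% interval 6.73 to 18.4) in untreated XiΔXist and 81.8% (95% interval 52.3 to 94.9) in shSCR (adjusted Fisher's exact p = 1.59e-05). Pcdhb16 was at 18.5% (95% interval 10.4 to 30.8) and 73.5% (95% interval 59.7 to 83.8) (adjusted Fisher's exact p = 2.68e-07). These were the members with a higher share. Among those with a lower share, Pcdhb22 was at 93.8% (95% interval 88.2 to 96.8) and 41.7% (95% interval 27.1 to 57.8) (adjusted Fisher's exact p = 1.32e-09) and Pcdhgb4 at 87.2% (95% interval 73.3 to 94.4) and 29.2% (95% interval 14.9 to 49.2) (adjusted Fisher's exact p = 5.38e-05). Pcdhb14, Pcdhb21, Pcdhgb2, Pcdhga6, Pcdhgb8 and Pcdhga12 were the others. The summed gamma share, 60.3% (95% interval 56.6 to 63.9) in untreated XiΔXist, was 48.2% (95% interval 43.9 to 52.5) in shSCR.

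Most members with enough reads were read from both alleles rather than 1. A member with at least 10 reads was called 1-allele when its 129 share was at most 10% or at least 90%. In WT 7 of 34 members were, beside 45.2% of autosomal and 11.9% of other chromosome 18 genes. These were Pcdha4, Pcdha5, Pcdha8, Pcdha9, Pcdhb9, Pcdhgb1 and Pcdhga9, all read from CAST. In XiΔXist 5 of 28 were, beside 45.0% and 11.6%, namely Pcdhb14, Pcdhb22 and Pcdhga2 on the 129 side and Pcdha5 and Pcdhb3 on the CAST side. In shSCR 4 of 28 were, beside 47.0% and 11.2%, with Pcdhga2 and Pcdhga4 on the 129 and Pcdha5 and Pcdha8 on the CAST side. In shYY1 6 of 27 were, beside 47.6% and 12.3%, with Pcdhb14 and Pcdhgc4 on the 129 and Pcdha5, Pcdha9, Pcdha10 and Pcdhac2 on the CAST side. Autosomal genes as a whole were thus read from 1 allele far more often than genes of chromosome 18, which are the nearer background here.

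Leaving out the alpha members, the 1-allele members numbered 3 of 30 in WT, 4 of 27 in XiΔXist, 2 of 26 in shSCR and 2 of 23 in shYY1, shares near those of other chromosome 18 genes. Whether a member kept its 1-allele call between pools could not always be read, since some had too few reads elsewhere, as Pcdhb9 with none outside WT. Pcdhga2 had 0 and 4 reads in WT, 10 and 1 in XiΔXist, 10 and 0 in shSCR and 0 and 2 in shYY1. Pcdhgc4, a C-type isoform known to be required for the survival of some neurons, had 11 and 1 reads in shYY1 and 8 and 6 in shSCR. A pool sums over many cells, so reads of both alleles do not show that 1 cell used both, and the number of promoters used per cell was not measured.

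Genes known to act on these clusters were measured beside them. Of 29 regulators 26 were tested, and in XiΔXist against WT none was called, with a median log2 change of -0.12. In shYY1 against shSCR only Yy1 was called, at a log2 change of -1.35. Smchd1 had 5489 and 4735 reads in WT (545 CPM), 5716 and 4878 in XiΔXist (496 CPM), 204 and 201 in shSCR (275 CPM) and 199 and 188 in shYY1 (263 CPM), and its log2 change was -0.14 in XiΔXist against WT and -0.07 in shYY1 against shSCR. Ctcf had 152 and 0 reads in WT (8.11 CPM), 118 and 1 in XiΔXist (5.58 CPM), 54 and 0 in shSCR (36.7 CPM) and 40 and 0 in shYY1 (27.2 CPM), with log2 changes of -0.47 and -0.42. In shSCR against untreated XiΔXist 14 regulators were called higher, among them Ctcf, Dnmt1, Trim28 and Yy1, and Wapl and Lrif1 lower. Over all autosomal genes 48.3% were called higher and 19.2% lower in that comparison. Proteins that bind the shared cytoplasmic tails or act with them, such as Ptk2, Fyn and members of the WAVE complex, gave no call in 11 tested in either XiΔXist against WT or shYY1 against shSCR, and 6 higher and 3 lower of 12 in shSCR against untreated XiΔXist.

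Other protocadherins and cadherins also differed between the untreated pools. Among 6 non-clustered protocadherins tested, Pcdh7 and Pcdh17 were called higher in XiΔXist and Pcdh10, Pcdh18 and Pcdh20 lower. In XiΔXist against WT 3.05% of autosomal genes were called higher and 6.19% lower. Pcdh20 had 1015 and 1701 reads in WT (145 CPM), 0 and 16 in XiΔXist (0.750 CPM), 0 and 45 in shSCR (30.6 CPM) and 0 and 50 in shYY1 (34 CPM), the widest difference of this list at a log2 change of -6.38. Pcdh18 had 4775 and 4489 reads in WT (494 CPM), 2506 and 2491 in XiΔXist (234 CPM), 300 and 264 in shSCR (383 CPM) and 282 and 287 in shYY1 (387 CPM), and Pcdh7 had 3416 and 2023 reads in WT (290.1 CPM), 8670 and 5102 in XiΔXist (645 CPM), 149 and 89 in shSCR (162 CPM) and 157 and 136 in shYY1 (199 CPM). The other calls were on lower counts, with log2 changes of 1.20 for Pcdh17 and -2.58 for Pcdh10. Of 9 cadherins tested, Cdh6 and Cdh13 were called higher, at 3.24 and 1.57 on the log2 scale, and Cdh3, Fat1 and Fat4 lower, at -3.99, -1.33 and -2.08. In shYY1 against shSCR, Pcdh1, a gene near the gamma cluster, was called lower at -1.02 and no cadherin was called. Against untreated XiΔXist, shSCR was called higher for Pcdh1, Pcdh20, Cdh2, Cdh10, Cdh13, Fat1 and Fat4 and lower for Pcdh7, Pcdh17 and Cdh6. Among the neighbouring genes, Hbegf, Spry4 and Fgf1 were called higher in XiΔXist than in WT, at 1.10, 1.98 and 1.25. None of 24 tested was called lower, beside 6.19% of autosomal genes. Of the other transcripts inside the alpha and gamma intervals, Gm10544 and Gm26672 were lower by 2-fold or more, at -1.7 and -1.2, and none was higher by as much. How far the lower level of the beta cluster extends was not tested. In shYY1 Gnpda1 was called lower at -1.14, and in shSCR against untreated XiΔXist 14 of 24 neighbours were called higher and 2, Cystm1 and Taf7, lower. All calls of shSCR against untreated XiΔXist stand beside 48.3% of autosomal genes called higher and 19.2% lower.

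Markers of the fibroblasts themselves also differed between pools. Fibroblast markers were called in both directions, with Col1a1, Col1a2 and Postn lower and Thy1 and Dcn higher in XiΔXist, Col3a1 higher in shYY1, and Col1a1, Pdgfrb, Fn1 and Postn higher and Col3a1 and Dcn lower in shSCR against untreated XiΔXist. Markers of epithelium summed to at most 1.36 CPM, those of endothelium to at most 3.57 CPM and those of blood to at most 22.4 CPM in any pool. Of the last 2 lists, Kdr was called lower in XiΔXist and Cd14 higher in shSCR than in untreated XiΔXist. The part of any of these in the cluster values was not tested.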

How the data were processed

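As far as the labels and the study's methods say, the authors pooled the reads of both samples of a group, aligned them with TopHat to mm10 masked at bases that differ between the strains, split them by allele with SNPsplit, and counted exons by gene ID with featureCounts 1.6.3. The deposited values are these whole-number counts, 1 table per allele and group, not normalized. The annotation release and strand setting are not given in the sources used here. The study names another 129 substrain for the X chromosomes than the labels do, and the effect of this on allele assignment was not tested.

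Of 46078 gene IDs 45229 matched GENCODE M21. Sums of both alleles were divided by the autosomal allelic reads of the pool. Ratios have exact conditional binomial intervals, summed levels exact Poisson and shares Wilson intervals, all at 95%, and a count of 0 was read as up to 3 counts. Fisher's exact test was two-sided (scipy 1.17.1), at an adjusted 0.05. Unique exon bases ignore strand, and members were aligned with blastn 2.17.0. The untreated XiΔXist pool and the shSCR pool each serve 2 comparisons, and comparisons that share a pool are not independent.

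Full values are given for the 30 members with the most reads among 35 with at least 50 reads in an untreated or 10 in a hairpin pool. Of the other lists, genes past 2-fold are named, with Taf7, Slc25a2, Diaph1, Hdac3, Smchd1, Ctcf, Xist and Yy1. Pcdh19, the reads of Wapl, the marker genes given by reads, the neighbours read from 1 allele and the transcripts inside the clusters were picked after their values were seen. The rule for the members uses no measured value, but they and the lists were chosen with earlier results of these data known. Promoters of the members were not analysed here. The steps were tested on simulated data. Alternatives varied the scaling, the pseudocount, the minimum reads, the 1-allele limits and the balance of the alleles.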

Additional observations from a re-analysis of the deposited data

How the results depend on the processing

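No paired analysis was possible because the reads of both samples of a group were pooled before counting, and for the same reason no sample could be left out in turn. Depth limits the hairpin pools most, where 1 read is worth about 0.68 CPM, and the sources used here give no replicate spread for any pool. The call of 9 lower beta members in XiΔXist against WT held under each scaling and each minimum of reads, and became 10 at a pseudocount of 0.1 CPM. At that pseudocount 2 gamma members were also called lower and 13 of 28 members in all, beside 9.84% of autosomal genes. Of 92 alternatives for counts of members and summed levels 48 stayed near the reported value and 44 moved, of 461 for the change of a single member 60 moved, and of 231 for a single member's share 7 newly passed and 4 lost the threshold. No called change or share turned its direction, but uncalled values near 0 did in places. The log2 change of Pcdhgc5 in XiΔXist against WT was 0.0079 as reported and -0.0050 by all allelic reads, and those of Pcdhb14 and Pcdhb17 in shYY1 against shSCR turned from -0.0010 and -0.0012 to 0.014 and 0.015 by the median ratio. The median over all members in shYY1 against shSCR was -0.09 as reported and 0.22 at 50 reads.

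In XiΔXist against WT, 0 of 28 members were called higher by all allelic reads, beside 2.68% of autosomal genes. There 1 member had a lower 129 share both at a minimum of 1 read and with CAST reads scaled. In shYY1 against shSCR, 2 of 11 members were called higher and 0 lower at a minimum of 50 reads, beside 1.57% and 1.13% of autosomal genes. At 1 read 7 of 46 were called higher and 7 lower, beside 12.2% and 11.4%. With CAST reads scaled, 1 member, Pcdhb14, had a higher 129 share in shYY1. In shSCR against untreated XiΔXist, 15 of 18 members were called higher at 50 reads and 40 of 52 at 1 read, beside 45.0% and 45.8% of autosomal genes. Lower calls there were 0 by all allelic reads and at 50 reads, and 2 by the median ratio and at a pseudocount of 0.1 CPM. Over autosomal genes lower calls were 21.5%, 20.5%, 28.9% and 20.4% in the same order. In that comparison 1 member had a higher 129 share at a minimum of 20 reads. The median log2 change of autosomal genes in that comparison was 0.89 as reported, 0.60 by all allelic reads and 0.21 by the median ratio.

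Members called 1-allele at a minimum of 5 reads numbered 12 in WT, 11 in shSCR and 13 in shYY1. At 20 reads they numbered 3 in both untreated pools and 1 in each hairpin pool. At limits of 20% and 80% there were 13 in WT, 13 in XiΔXist and 7 in shSCR, and at 5% and 95% there was 1 in XiΔXist. By all allelic reads, the alpha sum in CPM was 11.1 in WT and 3.04 in XiΔXist, and 37.2 and 45.1 in the shSCR and shYY1 pools. The beta sum was then 228.6, 28.2, 93.2 and 120.2 CPM and the gamma sum 27.9, 24.8, 219 and 161 CPM in the same order. By the median ratio against WT, shSCR and shYY1 were at 38.0 and 49.0 CPM for alpha, 95.3 and 130.5 CPM for beta, and 224 and 175 CPM for gamma. These shifts follow from the totals used as divisor, and the cause of the others was not tested.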

Other observations

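Some transcripts next to the gamma cluster that no comparison of the members used also showed allele differences. The long noncoding transcript 3222401L13Rik lies just before Pcdhga1 and had 199 and 49 reads in WT, 130 and 29 in XiΔXist, 5 and 20 in shSCR and 4 and 9 in shYY1. Gm8242, a transcribed pseudogene between Taf7 and this transcript, had 4 and 51 reads in WT, 0 and 47 in XiΔXist, 0 and 21 in shSCR and 0 and 23 in shYY1. Gm26672, antisense to several gamma members, had 32 and 61 reads in WT, 25 and 10 in XiΔXist, 9 and 3 in shSCR and 16 and 8 in shYY1.

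Pcdh19, a non-clustered protocadherin on the X chromosome that was left out of the autosomal tests, had 0 and 159 reads in WT (8.48 CPM), 28 and 1161 in XiΔXist (55.7 CPM), no reads in shSCR and no reads in shYY1.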
